A study of Mus musculus with 36 samples.

Results

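The 38 Hox genes described here were the genes of the deposited table whose symbol was Hoxa, Hoxb, Hoxc or Hoxd followed by a number, out of 37417 genes in all. They were 11 genes of the Hoxa cluster (mouse build GRCm38, chromosome 6, 52155590 to 52260880), 10 of Hoxb (chromosome 11, 96194316 to 96368256), 9 of Hoxc (chromosome 15, 102921103 to 103036852) and 8 of Hoxd (chromosome 2, 74668310 to 74765142). No identifier in the table carried the symbol Hoxd4, and that gene was not analysed here. The 36 poly-A selected RNA-seq libraries came from subcutaneous (s.c.) tumors of wild-type mice aged 12 weeks. Per the labels, the tumors were grown from MC38 (mouse colon carcinoma) or PancO2 (mouse pancreatic carcinoma) cells in C57BL/6J mice, or from CT26 (mouse colon carcinoma) cells in BALB/c mice. Mice carrying each line received 10 mg/kg of control IgG, anti-CTLA4 or anti-PD-1 by intraperitoneal injection, which gave 9 labelled groups of 4 libraries. Each model is 1 transplanted cell line growing among the host's own stromal, vessel and blood cells.

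Hox genes encode homeodomain transcription factors that give cells their position along the head-to-tail axis of the embryo. Within a cluster they lie in the order in which they are used, with low numbers active toward the head (anterior) and high numbers toward the tail and the ends of the limbs (posterior), and genes with the same number in different clusters (paralogues) are the closest relatives. Polycomb complexes keep the unused part of each cluster silent and Trithorax proteins keep the used part active. Adult cells, fibroblasts among them, retain the Hox pattern of the place they came from, so that the set of Hox genes in use can be read as a mark of origin of a cell line or of a tissue.

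Levels are given as CPM, counts scaled to a library total of 1000000 reads assigned to genes. The libraries were placed in 3 classes by transcripts outside the Hox clusters. In 12 libraries H2-Ea-ps, a class II histocompatibility pseudogene, was above 10 CPM (32.8 to 134 CPM, against at most 0.0845 CPM elsewhere). In another 12 libraries Cp, which encodes ceruloplasmin, was above 1000 CPM (1389 to 2168 CPM, with 611 CPM the highest value outside this class), and the remaining 12 libraries met neither rule. They are called the H2-Ea-ps, Cp and neither classes. The classes cut across the labels, since the libraries labelled CT26 were split 4, 3 and 5 over the H2-Ea-ps, Cp and neither classes, those labelled MC38 4, 4 and 4, and those labelled PancO2 4, 5 and 3. H2-Ea, listed as H2-Ea-ps in the annotation, is known to be transcribed in BALB/c mice and, because of a promoter deletion, not in C57BL/6 mice. Here it was above 10 CPM in 4 of the 12 libraries labelled as BALB/c tumors and in 8 of the 24 labelled as C57BL/6J tumors, so that the strain labels of libraries of both kinds went against it. Therefore a class is not a labelled model here, and no class is given the name of a cell line. Because the classes were drawn from values of the same libraries, differences between them are described and not tested.

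Of the 38 Hox genes, 29 reached 1 CPM in at least 4 libraries. The assigned reads per library ran from 7883106 to 41751023, so that 3 counts, taken as the limit that a count of 0 allows, corresponded to 0.0719 to 0.381 CPM, for counting error only. The shallowest library, labelled PancO2 anti-PD-1 71 and called library 71 from here on, stood apart. In it 86.5% of the reads listed fell in lines that name no gene (44.8% to 63.4% in the other 35 libraries), and mitochondrial genes took 15.7% of the assigned reads (2.80% to 4.35% elsewhere). It belonged to the H2-Ea-ps class, and results of that class include it unless stated, with values without it given for many of them. Among markers of the labelled tissues, the intestinal factor Cdx2 was at 5.60 to 13.7 CPM in the Cp class. It had no count in any library of the neither class. The 7 gut and carcinoma epithelium markers, Cdx2 among them, had median sums of 172, 740 and 145.5 CPM in the H2-Ea-ps, Cp and neither classes. The 4 pancreas markers (Pdx1, Ptf1a, Cpa1 and Sox9) had median sums of 48.8, 185 and 158 CPM. In the neither class 1 of the 4, Sox9, was on, and Ptf1a and Cpa1 stayed under 0.1 CPM. The sum of that class was therefore almost wholly Sox9. Of the 4 markers, Ptf1a had a median below 0.1 CPM in each class, whereas Pdx1 was highest in the Cp class, as given below.

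A gene was called on in a class when it was at 1 CPM or more in every library, off when its median was below 0.1 CPM, and low otherwise. On this rule 17 of 38 Hox genes were on in the H2-Ea-ps class, 19 in the Cp class and 23 in the neither class. Of the 15217 genes at 1 CPM in at least 4 libraries, 79.6%, 82.6% and 82% were on in the same classes. A shared core of 15 Hox genes was on in all 3 classes, among them Hoxa2, Hoxa3, Hoxa5, Hoxa6, Hoxa7, Hoxa9, Hoxa10, Hoxb4, Hoxb5, Hoxb6, Hoxc4, Hoxc5, Hoxc6 and Hoxd8. Hoxc8, Hoxc9 and Hoxc10 were on in the Cp and neither classes and Hoxd3 in the H2-Ea-ps and neither classes. The 6 genes on in 1 class were Hoxb9 (H2-Ea-ps), Hoxd13 (Cp) and Hoxa4, Hoxa11, Hoxc11 and Hoxc13 (neither). The other 13 were on in no class. Near the limit, Hoxa3 in the neither class had a lowest value of 1.01 CPM and Hoxb5 in the H2-Ea-ps class 1.01 CPM, whereas Hoxb3 in the Cp class missed it at 0.652 CPM.

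**Figure D1:**
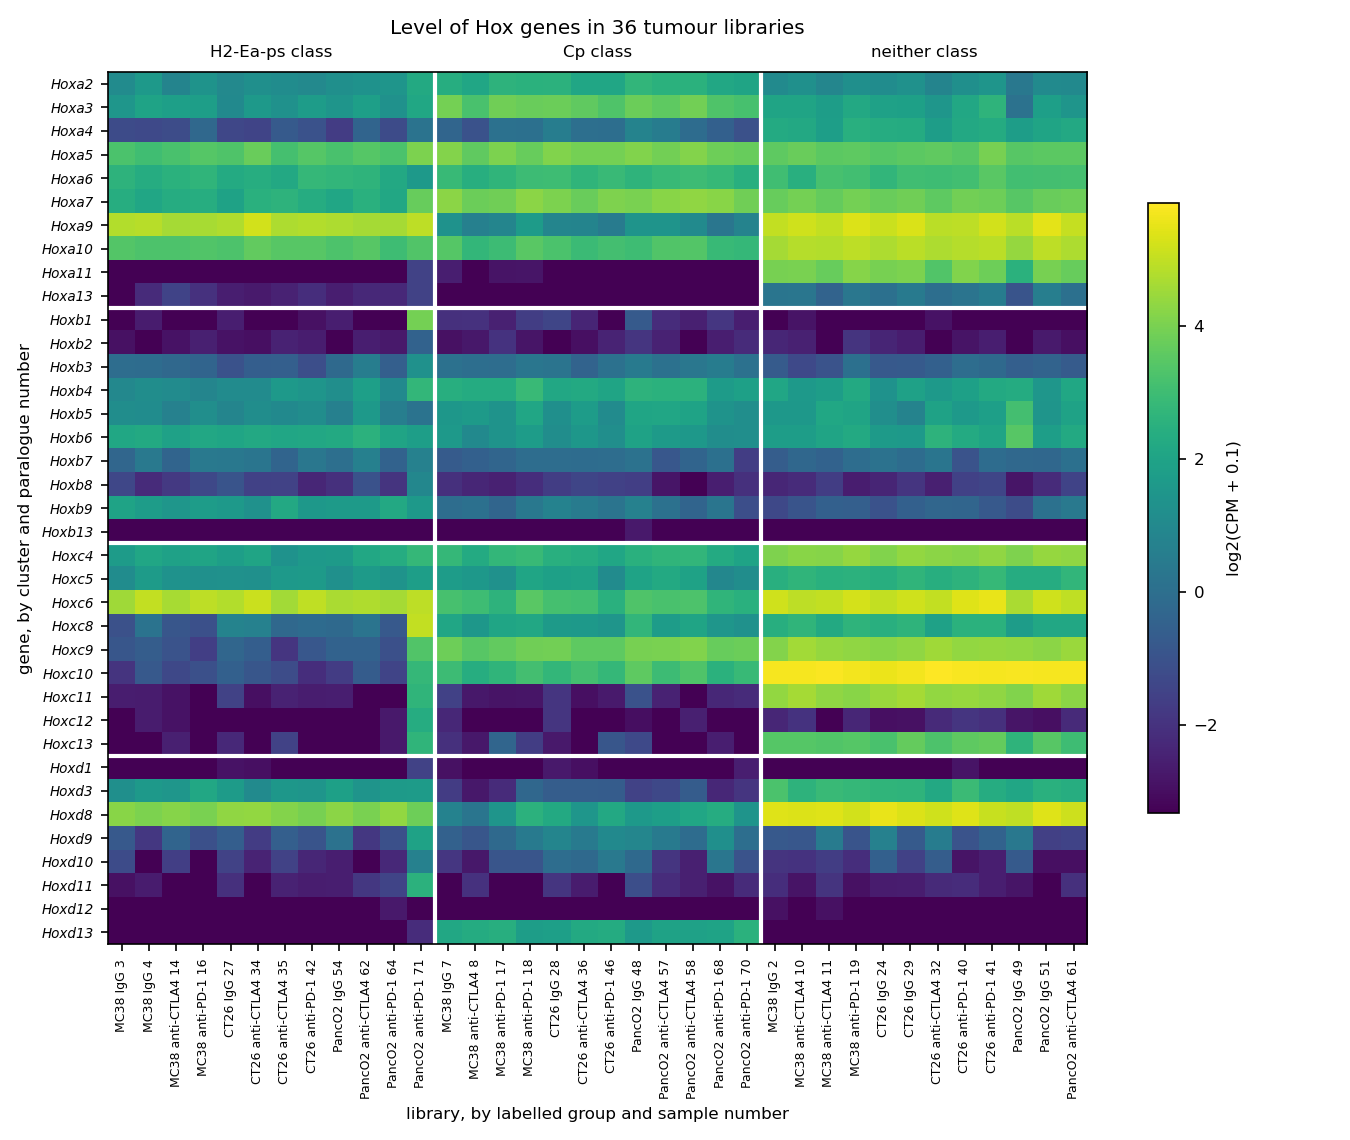
Each column is 1 of 36 libraries, ordered by class, and each row 1 Hox gene, ordered by cluster and number; color gives log2(CPM + 0.1), a pseudocount used for drawing alone. The genes on in the H2-Ea-ps, Cp and neither classes form nearly the same rows in all libraries of a class, and library 71 (PancO2 anti-PD-1 71), the last of the H2-Ea-ps class, differs from its 11 neighbors.

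The promoters of 4 genes that told the classes apart, or were shared between a pair of them, are shown here as RefSeq gives them (GRCm38.p6; 250 bases before the transcript start and 50 after, 5′ to 3′ on the strand of the gene), with CpG dinucleotides in capitals. CpG-rich stretches are where Polycomb complexes act in vertebrate Hox clusters. Hoxa9 (chr6:52227321-52227620, minus strand) was on in every class but far lower in the Cp class, Hoxa11 (chr6:52245761-52246060, minus strand) was on in the neither class alone, Hoxd13 (chr2:74667975-74668274, plus strand) in the Cp class alone, and Hoxd8 (chr2:74704365-74704664, plus strand) was 1 of 2 members at a separate level in each class.
Hoxa9: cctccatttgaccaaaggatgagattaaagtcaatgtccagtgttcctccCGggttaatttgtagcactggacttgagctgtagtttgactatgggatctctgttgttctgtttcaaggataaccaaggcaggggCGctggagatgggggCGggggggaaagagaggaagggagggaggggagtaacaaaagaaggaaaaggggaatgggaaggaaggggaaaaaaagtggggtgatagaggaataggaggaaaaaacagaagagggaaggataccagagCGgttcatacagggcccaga
Hoxa11: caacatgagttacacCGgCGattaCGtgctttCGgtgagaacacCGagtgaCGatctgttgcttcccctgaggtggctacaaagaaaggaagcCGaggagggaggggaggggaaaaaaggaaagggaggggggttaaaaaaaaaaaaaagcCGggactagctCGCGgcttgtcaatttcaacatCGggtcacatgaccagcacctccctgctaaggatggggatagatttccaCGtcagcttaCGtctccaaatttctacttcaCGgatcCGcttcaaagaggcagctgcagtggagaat
Hoxd13: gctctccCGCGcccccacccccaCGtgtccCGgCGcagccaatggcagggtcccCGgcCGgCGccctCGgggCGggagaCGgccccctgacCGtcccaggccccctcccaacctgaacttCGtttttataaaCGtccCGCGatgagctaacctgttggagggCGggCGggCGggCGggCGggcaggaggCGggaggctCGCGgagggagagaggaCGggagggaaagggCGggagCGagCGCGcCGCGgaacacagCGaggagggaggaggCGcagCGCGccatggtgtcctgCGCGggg
Hoxd8: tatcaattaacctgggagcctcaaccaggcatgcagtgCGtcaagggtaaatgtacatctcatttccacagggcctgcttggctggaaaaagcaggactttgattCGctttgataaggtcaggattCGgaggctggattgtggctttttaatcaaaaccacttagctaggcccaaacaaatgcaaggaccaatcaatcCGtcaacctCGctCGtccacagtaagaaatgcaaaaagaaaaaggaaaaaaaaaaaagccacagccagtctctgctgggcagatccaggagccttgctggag
These windows held 4 CpG dinucleotides at Hoxa9, 15 at Hoxa11, 37 at Hoxd13 and 6 at Hoxd8. The 23 promoters listed for 21 of the Hox genes held a median of 15, against 7 in all 32851 promoters of the table. A search of both strands found the TATA-box letters TATAAA in 13.04% of the Hox promoters, Hoxd13 among them, and in 13.6% of all promoters. The letters TGATNNAT, a site at which Hox and Pbx proteins can bind together, were in 17.4% of the Hox promoters and in 8.85% of all. The windows of the 4 genes above did not hold TGATNNAT. Such matches are letters in a window and do not show binding.

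Of the 11 Hoxa genes, 8, 8 and 10 were on in the H2-Ea-ps, Cp and neither classes. The anterior and central genes Hoxa2, Hoxa3, Hoxa5, Hoxa6 and Hoxa7, which pattern the hindbrain, neck and chest, were on in all classes. Hoxa5, a gene of lung and upper spine patterning, was at 8.18 to 16.4 CPM (median 9.65) in the H2-Ea-ps class, 12.0 to 17.7 CPM (median 15.1) in the Cp class and 10.7 to 15.7 CPM (median 11.7) in the neither class. Its ranges overlapped between all pairs of classes. Hoxa6 likewise had medians of 5.41, 7.07 and 8.27 CPM in the H2-Ea-ps, Cp and neither classes, within a full range of 3.04 to 11.3 CPM.

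Hoxa3, needed for the thymus and parathyroid, was separated in the Cp class. It ran from 8.98 to 15.1 CPM (median 12.8) there, against 1.92 to 4.31 CPM (median 3.09) in the H2-Ea-ps class and 1.01 to 6.12 CPM (median 3.65) in the neither class. Hoxa2, which patterns the second pharyngeal arch, was at 4.05 to 6.42 CPM (median 5.46) in the Cp class, 1.18 to 2.68 CPM (median 2.04) in the neither class and 1.68 to 4.69 CPM (median 2.27) in the H2-Ea-ps class, where the highest value was that of library 71 and the next was 2.91 CPM. Hoxa7 was lowest in the H2-Ea-ps class, at 3.84 to 13.1 CPM (median 5.11; at most 6.01 CPM without that library), and lay at 13.6 to 19.9 CPM (median 16.5) in the Cp class and 11.05 to 15.3 CPM (median 13.7) in the neither class. Hoxa4 was on in the neither class alone, at 3.33 to 5.48 CPM (median 4.52). It was at 0.213 to 1.01 CPM in the H2-Ea-ps class and 0.383 to 1.60 CPM in the Cp class. Exons of Hoxa2, Hoxa3, Hoxa4 and Hoxa7 share 15.0%, 27.1%, 16% and 20.4% of their bases with other annotated genes, which makes their counts less certain.

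At the posterior end of Hoxa the classes parted. Hoxa9, a trunk and blood-progenitor gene, was at 24.3 to 37.0 CPM (median 26.6) in the H2-Ea-ps class and 29.6 to 44.1 CPM (median 34.05) in the neither class, but at 1.12 to 3.21 CPM (median 1.71) in the Cp class. The lowest library outside the Cp class was above every library in it. The neighboring gene Hoxa10, which patterns the lumbar spine and uterus, did not follow Hoxa9. It ran from 7.86 to 12.4 CPM (median 10.2) in the H2-Ea-ps class and 6.62 to 11.2 CPM (median 8.24) in the Cp class, ranges that overlapped, and from 20.75 to 30.4 CPM (median 28.02) in the neither class, above both.

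Hoxa11, a gene of the forearm, kidney and uterus, had no count in 11 libraries of the H2-Ea-ps class and 0.254 CPM in library 71, and did not exceed 0.0694 CPM in the Cp class. In the neither class it was at 5.74 to 18.1 CPM (median 15.6), with the lowest value in the library labelled PancO2 IgG 49, called library 49. Hoxa11 shares 34.98% of its exon bases with the antisense transcript Hoxa11os, which was at 4.72 to 11.3 CPM (median 8.59) in the neither class and had a median of 0 in the other classes. Because strand use in counting is not stated, how reads were counted where the 2 transcripts overlap is not known. Counting without strand would set such reads aside and lower both counts. Hoxa13, which patterns the digits and hindgut, was low in the neither class (0.422 to 1.42 CPM, median 1.07), at 0 to 0.262 CPM in the H2-Ea-ps class and without a count in the Cp class.

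In the Hoxb cluster Hoxb9 alone separated any pair of classes. Hoxb4, Hoxb5 and Hoxb6, which pattern the neck and upper trunk and, for Hoxb4, act in blood stem cells, were on in all classes with ranges that overlapped. Hoxb4 had a median of 2.12 CPM (1.72 to 6.60) in the H2-Ea-ps class, 4.90 CPM (3.18 to 7.37) in the Cp class and 3.69 CPM (2.43 to 4.85) in the neither class. For Hoxb5 the medians were 2.03, 2.96 and 3.23 CPM, with ranges of 1.01 to 2.99, 2.04 to 4.25 and 1.63 to 8.48 CPM. Hoxb6 lay at 3.42 to 5.86 CPM (median 4.37), 1.94 to 3.82 CPM (median 2.65) and 2.99 to 10.8 CPM (median 3.96) in the same order of classes. The highest Hoxb5 and Hoxb6 values of the neither class were both those of library 49, and the next were 4.33 and 5.99 CPM.

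Hoxb9, a chest and mammary gland gene, was the only member of any cluster whose H2-Ea-ps class lay above both other classes without overlap. It was at 2.38 to 4.57 CPM (median 3.08) there, against 0.359 to 1.59 CPM (median 1.01) in the Cp class and 0.293 to 1.21 CPM (median 0.594) in the neither class. The 6 other Hoxb genes were on in no class. Hoxb3 and Hoxb7 were between 0.216 and 2.41 CPM in all libraries, and 52.9% of the exon bases of Hoxb3 are shared with the antisense gene Hoxb3os. Hoxb1, Hoxb2, Hoxb8 and Hoxb13 stayed at or below 0.505 CPM in 35 libraries. Hoxb13, the most posterior gene of this cluster and known from prostate and distal colon, had a count in 1 of the 36 libraries (0.0561 CPM).

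Hoxc showed a stepwise pattern. The H2-Ea-ps class used Hoxc4 to Hoxc6, the Cp class Hoxc4 to Hoxc10, and the neither class all Hoxc genes but Hoxc12. Hoxc6, a gene of the chest region, was at 23.4 to 34.7 CPM (median 27.3) in the H2-Ea-ps class and 25.6 to 47.1 CPM (median 34.2) in the neither class, and lower at 5.61 to 11.2 CPM (median 8.55) in the Cp class. Hoxc4 was at 16.9 to 20.96 CPM (median 18.8) in the neither class, above both the H2-Ea-ps class (2.45 to 6.85 CPM, median 3.85) and the Cp class (3.88 to 7.15 CPM, median 5.52). Hoxc5 was ordered in the same way, with medians of 2.48, 3.44 and 5.66 CPM in the H2-Ea-ps, Cp and neither classes and ranges of 2.10 to 3.42, 1.82 to 4.69 and 4.98 to 6.93 CPM.

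Hoxc8, Hoxc9 and Hoxc10, which pattern the lower chest and lumbar spine, marked the step between the H2-Ea-ps class and the others. In 11 libraries of the H2-Ea-ps class Hoxc9 was between 0.169 and 0.711 CPM, and it reached 10.3 CPM in library 71. It was at 10.95 to 17.1 CPM (median 13.96) in the Cp class and 17.5 to 23.8 CPM (median 20.6) in the neither class, so that the 3 classes did not overlap even with that library included. Hoxc10 was at 0.130 to 0.604 CPM in the same 11 libraries (6.85 CPM in the other), 5.17 to 11.9 CPM (median 7.36) in the Cp class and 47.5 to 57.6 CPM (median 53.1) in the neither class. Hoxc8 was at 0.373 to 1.60 CPM in the 11 libraries (31.8 CPM in the other), with medians of 3.21 CPM (2.37 to 6.51) in the Cp class and 5.34 CPM (3.25 to 6.38) in the neither class.

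The most posterior Hoxc genes were used by the neither class. Hoxc11, a hindlimb gene, was at 17.2 to 24.6 CPM (median 20.35), and Hoxc13, which acts in hair follicles and nails, at 6.07 to 12.8 CPM (median 10.8). In the Cp class these genes did not exceed 0.393 and 0.702 CPM. In the H2-Ea-ps class they were at most 0.249 and 0.254 CPM in 11 libraries and at 6.34 CPM each in library 71. Hoxc12, which lies between them, was off in each class and at 0 to 0.164 CPM in the neither class. The use of the cluster in that class therefore had a gap at Hoxc12.

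In Hoxd, Hoxd8 and Hoxd13 carried most of the difference. Hoxd8, a gene of the trunk, was at 14.1 to 20.7 CPM (median 17.8) in the H2-Ea-ps class, 1.09 to 5.81 CPM (median 3.225) in the Cp class and 31.4 to 46.2 CPM (median 41.1) in the neither class, with no overlap between any pair. Hoxd13, the last gene of the cluster and a factor of digits, genital tubercle and hindgut, was on in the Cp class alone. It was at 2.92 to 5.68 CPM (median 4.13) in those 12 libraries, had 1 count (0.127 CPM) in library 71, and had no count in any of the other 23 libraries. A count of 0 allows up to 0.0865 to 0.127 CPM in the libraries of the neither class. Next to Hoxd13, Hoxd12 had no count in the Cp class and Hoxd11 reached at most 0.365 CPM there. Hoxd9 and Hoxd10 were low in each class, though Hoxd10 was off in the H2-Ea-ps class without library 71. Their highest medians were in the Cp class. Those of Hoxd9 were 0.454, 1.23 and 0.499 CPM in the H2-Ea-ps, Cp and neither classes and those of Hoxd10 0.103, 0.431 and 0.159 CPM, and their ranges overlapped.

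Hoxd3, an anterior gene, was at 2.02 to 4.40 CPM (median 2.88) in the H2-Ea-ps class and 4.18 to 9.47 CPM (median 6.09) in the neither class, and between 0.0498 and 0.737 CPM in the Cp class. Its exons share 62.8% of their bases with other annotated genes, Hoxd4 and the noncoding Hoxd3os1 and Haglr among them, so its value is uncertain. Hoxd1 and Hoxd12 never reached 1 CPM in any library, and neither did Hoxb2 and Hoxb13.

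**Figure D2:**
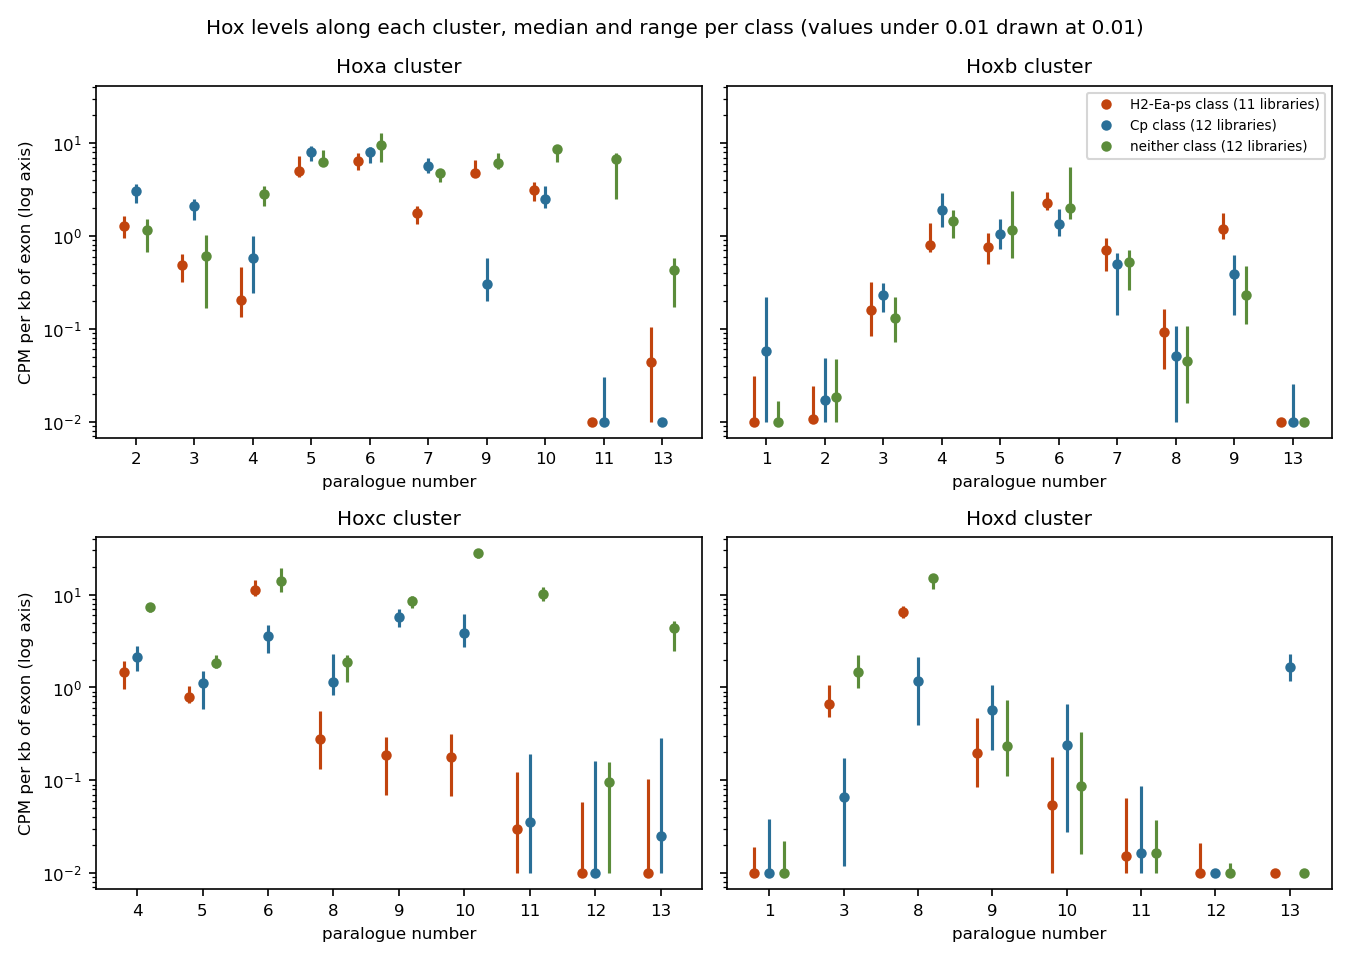
Points give the median and lines the lowest and highest value of a class, as CPM per kb of exon on a log axis, for genes of the 4 clusters in order of paralogue number; the H2-Ea-ps class is drawn without library 71. The Hoxb profiles lie together except at Hoxb9, and Hoxd13 is raised in the Cp class alone. In Hoxc, the neither class lies above both others at Hoxc4 and Hoxc5, and the Cp class below both others at Hoxc6. The H2-Ea-ps class lies below both others at Hoxc8, Hoxc9 and Hoxc10.

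To compare genes with each other, CPM was divided by exon length in kb. Per length, the leading members of the H2-Ea-ps class were Hoxc6 (median 11.3 CPM per kb), Hoxd8 (6.48) and Hoxa6 (6.19). The Cp class was led by Hoxa6 and Hoxa5 (medians of 8.09 and 8.04 CPM per kb), followed by Hoxc9 and Hoxa7 (5.75 and 5.74). In the neither class Hoxc10 was highest (27.8 CPM per kb), ahead of Hoxd8 (15.0), Hoxc6 (14.2) and Hoxc11 (10.1). The highest median of a Hoxb gene in any class was 2.22 CPM per kb, for Hoxb6 in the H2-Ea-ps class.

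Summed over the 38 genes, Hox transcripts took 127 to 257 CPM (median 137) in the H2-Ea-ps class, with 257 CPM in library 71, 110.5 to 160.2 CPM (median 139) in the Cp class and 307 to 380 CPM (median 356) in the neither class. In bulk tumor RNA, fewer cells that use a gene and less RNA per cell cannot be told apart. Posterior genes (numbers 9 to 13, 16 genes) made up a median of 51.8% of the Hox sum in the neither class (49.97% to 53.8%), 30.8% in the H2-Ea-ps class (28.3% to 35.2%) and 28.2% in the Cp class (27.2% to 32.7%). Anterior genes (1 to 3, 8 genes) made up a median of 16.2% in the Cp class, 8.57% in the H2-Ea-ps class and 4.43% in the neither class. Those anterior ranges, 15.3% to 19.7%, 6.47% to 12.5% and 3.02% to 5.38%, did not overlap, and neither did the posterior range of the neither class with the other posterior ranges.

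By paralogue group, groups 5 and 6 were complete in every class, with the Hoxa, Hoxb and Hoxc member of each on. Groups 2 and 7 were represented by their Hoxa member alone in each class, and group 12 by no member. Group 11 was used in the neither class alone, where its summed level was 23.0 to 40.6 CPM, against at most 0.757 CPM in the Cp class and 0.391 CPM in 11 libraries of the H2-Ea-ps class (12.4 CPM in library 71). The members on in group 9 were Hoxa9 and Hoxb9 in the H2-Ea-ps class, and Hoxa9 and Hoxc9 in the Cp and neither classes. In group 13 the Cp class used Hoxd13 and the neither class Hoxc13.

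The number of Hox genes whose ranges did not overlap was 9 of 38 between the H2-Ea-ps and Cp classes, where 31% of the 15217 genes did not overlap. It was 11 of 38 between the H2-Ea-ps and neither classes (26.2% of all genes) and 17 of 38 between the Cp and neither classes (30.2% of all genes). These were 23.7%, 28.9% and 44.7% of the 38 members, and 31.03%, 37.9% and 58.6% of the 29 that reached 1 CPM in at least 4 libraries, the rule by which the 15217 genes were chosen. A gene that reached 1 CPM through 1 class alone had to differ, so nothing is read from these shares. Without library 71 the counts of the first pair and the second were 12 and 14 (41.4% and 48.3% of the 29), where 39.3% and 33.8% of all genes did not overlap. The H2-Ea-ps class was above the Cp class for 5 (Hoxa9, Hoxb9, Hoxc6, Hoxd3 and Hoxd8) and below it for 4 (Hoxa3, Hoxa7, Hoxc9 and Hoxd13), where 12% and 18.9% of all genes were. The neither class was above the H2-Ea-ps class for 10 of the 11 genes (17% of all genes) and below it for Hoxb9 (9.19% of all genes). It was above the Cp class for 14 of the 17 genes (15.5% of all genes) and below it for Hoxa2, Hoxa3 and Hoxd13 (14.6% of all genes). Hoxc9 and Hoxd8 were separated between all pairs, where 3.84% of all genes were.

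**Figure D3:**
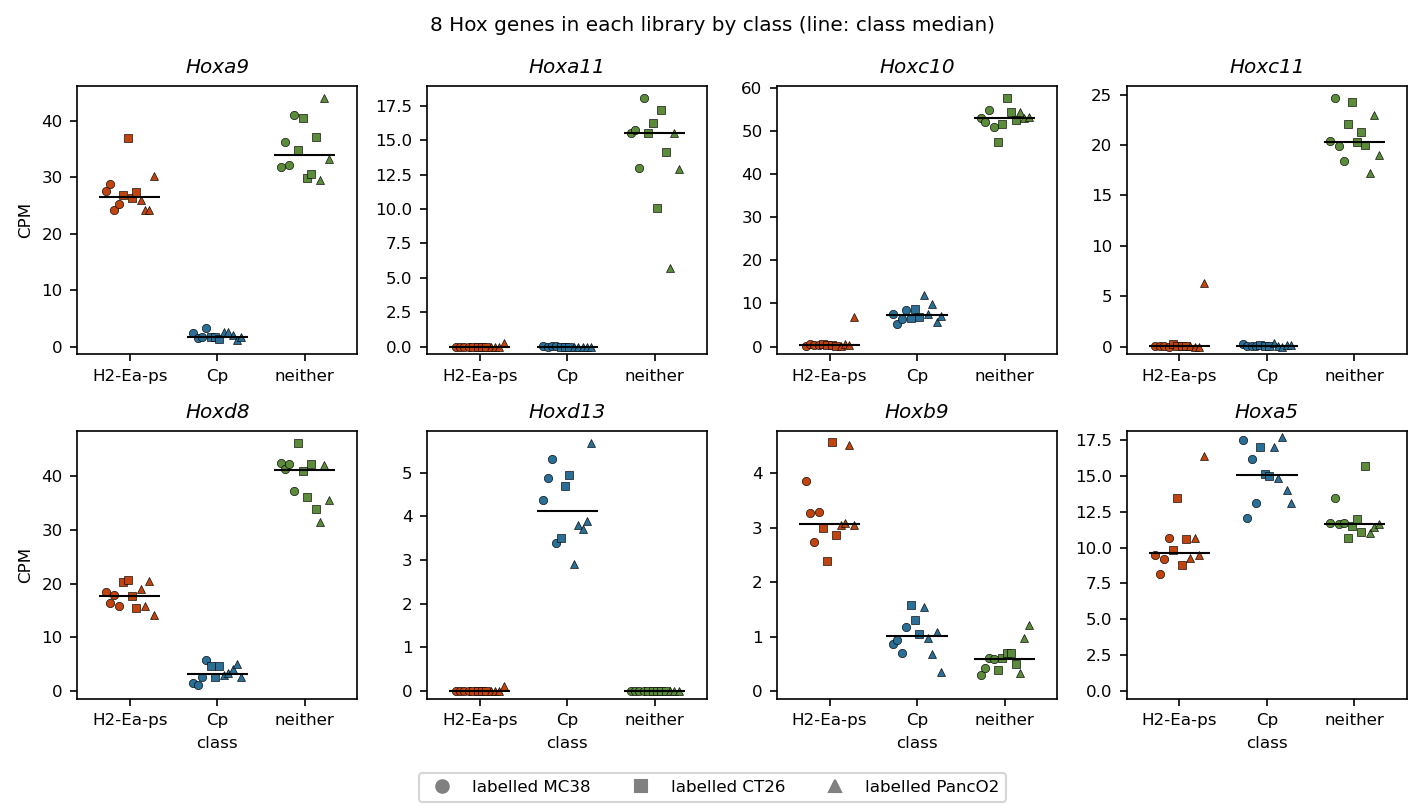
CPM of 8 Hox genes in each of 36 libraries by class, with the labelled model as the shape of the point and the class median as a line. Hoxa9, Hoxa11, Hoxc10, Hoxc11, Hoxd8, Hoxd13 and Hoxb9 separate at least 1 pair of classes, Hoxa5 separates none, and all 3 shapes occur in every class.

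Within a class the levels were constant to a degree that differed between genes. The coefficient of variation (CV, the SD divided by the mean) of the genes on had a median of 21.2% in the H2-Ea-ps class (14.6% without library 71), 19.95% in the Cp class and 16.3% in the neither class. Counting error alone would give medians of 12.4%, 8.97% and 5.78%. All genes on in the same class had median CVs of 16.6%, 13.02% and 12.1%, and those in the range of levels of the Hox genes 20.9%, 21.55% and 13.55%. The median of the Hox genes was thus within 2 percentage points of that of other genes of like level in the H2-Ea-ps and Cp classes, and above it in the neither class. Hoxc10 in the neither class was the steadiest member, with a CV of 4.62% over 12 libraries, and Hoxc4 and Hoxc9 followed there at 8.03% and 8.97%. The most variable members on were Hoxb5 in the neither class (48.4%), Hoxb4 in the H2-Ea-ps class (50.9%; 23.99% without that library) and Hoxd8 in the Cp class (41.5%).

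The share of the variance of log2(CPM + 0.5) that lay between classes had a median of 86.6% over the 29 Hox genes, and 64.65% over all 15217 genes. It was above 90% for 13 of the 29 and for 13.5% of all genes. For Hoxc8 it was 43.7%, and 86.45% without library 71. A gene that reached 1 CPM through 1 class alone had to differ between classes. Nothing is therefore read from the difference between the Hox genes and all genes. The highest share was that of Hoxd13 (99.0%), and the lowest were those of Hoxd9, Hoxb7 and Hoxb3 (20.1%, 22.2% and 27.8%). The labelled model accounted for a median of 1.93% and the labelled treatment for 2.34%, against 2.33% and 1.998% over all genes. Correlated over the 38 genes, the Hox profiles of libraries of 1 class had r between 0.952 and 0.996, and those of different classes between 0.517 and 0.754, when library 71 was left out. These are descriptions across genes, which are not independent. For all 36 libraries the most similar Hox profile was that of a library of the same class. It had the same labelled model for 16 libraries and the same labelled group for 3.

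In library 71, 25 of the 38 Hox genes were above all 11 other libraries of the H2-Ea-ps class and 5 were below all. Of the 15217 genes, 26.7% were above and 43.4% below. These 15217 had to reach 1 CPM in at least 4 libraries, a rule that 29 of the 38 Hox genes met, so the shares are not on like sets. Some of the 25 rested on few reads in library 71, with 1 count for Hoxd13, 2 each for Hoxa11 and Hoxd1 and 5 for Hoxb2. The genes above included ones that no class used. Hoxb1, a hindbrain gene, was at 15.2 CPM against at most 0.0711 CPM in the other 11. Hoxd11 was at 5.84 CPM (at most 0.269) and Hoxc12 at 5.07 CPM (at most 0.0606). Hoxc8, on in the Cp and neither classes, was at 31.8 CPM in library 71 (at most 1.60). Genes of the class core kept their level, such as Hoxa9 at 30.2 CPM, Hoxc6 within the range of the class, and Hoxa10. Its Hox profile correlated at 0.556 to 0.653 with its own class and at 0.491 to 0.617 with the others. The shallow depth, the high share of reads in no gene and the mitochondrial share of this library, given above, went along with these values, and their part in them was not tested.

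**Figure D4:**
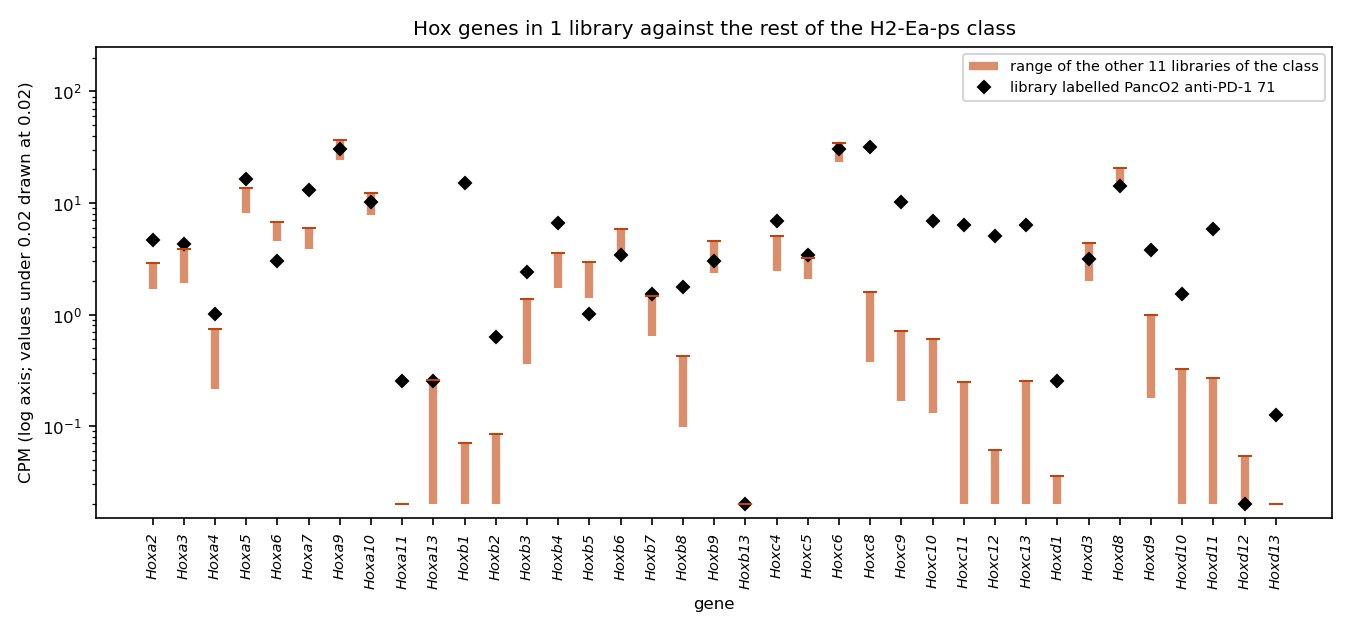
Diamonds give the CPM of Hox genes in library 71 and bars the range of the other 11 libraries of the H2-Ea-ps class, on a log axis. For 25 genes the diamond lies above the bar, as at Hoxb1 (15.2 CPM against at most 0.0711).

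A second library lay at the ends of its class for many Hox genes. In library 49, 16 of the 23 Hox genes on in the neither class were at the lowest value of the 12 libraries, and Hoxb4, Hoxb5 and Hoxb6 were at the highest. The share of all genes at their lowest in library 49 was not counted. Nothing particular to Hox genes is therefore read from these counts. Its Hoxa11 value was 5.74 CPM against a class median of 15.6, and its summed Hoxb level 25.9 CPM against a median of 13.6. All 23 genes were still on in it. It also had the highest Cp value of the class, 611 CPM, and a total of 23709709 counts, the lowest of the class, and whether these go with its Hox values was not tested.

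The labelled comparisons ask whether the cell line named on the label or the antibody went with a Hox level. Because many libraries went against their labels, as described above, they compare labels and not known cell lines. The summed Hoxc level was 52.6 ± 36.6 CPM (SD, n = 4) in the lowest labelled group, PancO2 anti-PD-1, and 110 ± 84.8 CPM (SD, n = 4) in the highest, CT26 anti-PD-1. Hoxa sums ran from 67.3 ± 12.4 CPM in PancO2 anti-PD-1 to 101 ± 37.7 CPM in CT26 anti-PD-1, Hoxb sums from 11.53 ± 1.62 CPM in CT26 IgG to 17.6 ± 12.1 CPM in PancO2 anti-PD-1, and Hoxd sums from 18.9 ± 9.13 CPM in PancO2 anti-PD-1 to 34.6 ± 20.2 CPM in CT26 IgG (SD, n = 4 each). PancO2 anti-PD-1 was the group without a library of the neither class. It held library 71, without which its Hoxc sum was 34.3 ± 1.10 CPM and its Hoxb sum 11.6 ± 1.73 CPM (SD, n = 3). The highest Hoxb sum was then the 17.3 ± 6.52 CPM (SD, n = 4) of PancO2 IgG, to which library 49 belonged.

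None of the 28 or 29 Hox genes tested was called in any of the 9 comparisons by the quasi-likelihood test of edgeR, adjusted over all genes by the Benjamini-Hochberg method, where 0% of 16285 to 16510 genes were called. At an unadjusted p under 0.05 there were 3 of 259 tests of Hox genes (Hoxb5 in 2 comparisons and Hoxa4 in 1) and between 25 and 912 genes in all per comparison. DESeq2 and limma-voom called 0 Hox genes as well, and over all genes DESeq2 called at most 2 and limma-voom 0. Hoxb5 was at 1.49, 4.07, 8.48 and 2.63 CPM in the libraries labelled PancO2 IgG and at 1.71, 2.30, 2.19 and 1.63 CPM in those labelled CT26 IgG, a log2 difference of 1.05 (SE 0.44, edgeR adjusted p = 0.9999). The highest of these values was that of library 49, and the groups overlapped.

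In the comparison of anti-PD-1 with IgG among libraries labelled PancO2, Hoxb5 had a log2 difference of -1.15 (SE 0.51, edgeR adjusted p = 0.806). Hoxa4 had a log2 difference of -1.96 (SE 0.88, edgeR adjusted p = 0.806). It was at 0.213, 1.60, 3.33 and 3.96 CPM under IgG, the 2 highest being the 2 libraries of the neither class, and at 0.323, 1.01, 0.595 and 0.383 CPM under anti-PD-1. With a term for the classes the log2 difference of Hoxa4 was -0.43 (SE 0.66, edgeR adjusted p = 0.992). The labels number the samples without saying that each came from a separate mouse, so that p-values measure only the spread between these libraries, which may be technical.

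Hox proteins bind DNA together with TALE-family cofactors, the Pbx, Meis and Pknox proteins. Of 9 such genes 6 were on in the H2-Ea-ps class, and 8 in the Cp and in the neither class. Meis1 was at 40.02 to 57.99 CPM (median 48.01) in the Cp class and 10.5 to 16.1 CPM (median 12.8) in the neither class. In the H2-Ea-ps class it was at 0.373 to 0.924 CPM in 11 libraries and at 20.8 CPM in library 71. Meis2 was also highest in the Cp class, at 130 to 177 CPM (median 151.5), against 26.6 to 67.9 CPM (median 34.2) in the H2-Ea-ps class and 41.2 to 59.0 CPM (median 51.7) in the neither class. Pbx3 had a median of 48.4 CPM in the Cp class, 25.9 CPM in the H2-Ea-ps class and 26.1 CPM in the neither class. Pbx4 was on in the Cp class alone (4.28 to 7.44 CPM) and Pknox2 in the neither class alone (2.74 to 7.72 CPM). Pbx2, Meis3 and Pknox1 were on throughout, with medians between 15.1 and 61.6 CPM, and overlapped between all classes.

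Cdx factors switch on central and posterior Hox genes in the embryo, and the ParaHox genes are a sister cluster of Hox. Of Cdx1, Cdx2 and Cdx4, Cdx2 was on, in the Cp class alone (5.60 to 13.7 CPM, median 8.14). Pdx1, the ParaHox gene of pancreas and duodenum, was at 38.4 to 63.9 CPM (median 55.6) in the Cp class, 3.52 to 7.74 CPM (median 5.02) in the H2-Ea-ps class and at most 0.112 CPM in the neither class, with no overlap between any pair. Gsx1 and Gsx2 were off in each class.

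All 14 Polycomb and Trithorax genes examined were on in every class. Ezh2, the main methyltransferase of Polycomb complex 2, was at 32.1 to 50.04 CPM (median 43.3) in the neither class, and higher at 81.7 to 113 CPM (median 88.8) in the H2-Ea-ps class and 66.8 to 88 CPM (median 77.0) in the Cp class. Bmi1, of Polycomb complex 1, had medians of 188, 159 and 112 CPM in the H2-Ea-ps, Cp and neither classes, and its neither class lay below both others. Rnf2, the ubiquitin ligase of that complex, was ordered the other way, at 105 to 129 CPM (median 118) in the neither class against medians of 77.3 and 63.5 CPM in the H2-Ea-ps and Cp classes. Between classes 4 or 5 of the 14 genes did not overlap, with 31%, 26.2% and 30.2% of all genes as above.

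Of 10 noncoding RNAs of the clusters, 1 was on in the H2-Ea-ps class, 3 in the Cp class and 5 in the neither class. Hotair, transcribed within Hoxc between Hoxc11 and Hoxc12, was at 6.63 to 12.4 CPM (median 9.12) in the neither class, at most 0.196 CPM in the Cp class and at most 0.142 CPM in 11 libraries of the H2-Ea-ps class (3.68 CPM in library 71). Hotairm1 was on in all classes with medians of 3.36, 5.16 and 4.09 CPM. Hoxd3os1 was on in the neither class (4.26 to 6.23 CPM), Hoxaas3 in the Cp class (1.04 to 2.07 CPM) and the neither class (1.25 to 3.27 CPM), and Hoxb3os in the Cp class (1.29 to 2.77 CPM). Hottip, at the posterior end of Hoxa, was at 0.0608 to 0.205 CPM in the neither class.

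Outside the clusters, 10 of 14 flanking genes were on in each class. Evx1 and Evx2, the homeobox genes next to Hoxa13 and Hoxd13, were off in each class, also in the Cp class, where Hoxd13 was on and Evx2 reached at most 0.0390 CPM. Lnpk and Mtx2, on the 2 sides of Hoxd, had medians of 72.1, 46.01 and 57.7 CPM and of 65.1, 56.45 and 103 CPM in the H2-Ea-ps, Cp and neither classes. Skap2, on the anterior side of Hoxa, was at 65.0 to 82.4 CPM in the Cp class, above the 45.9 to 60.6 CPM of the other libraries.

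**Figure D5:**
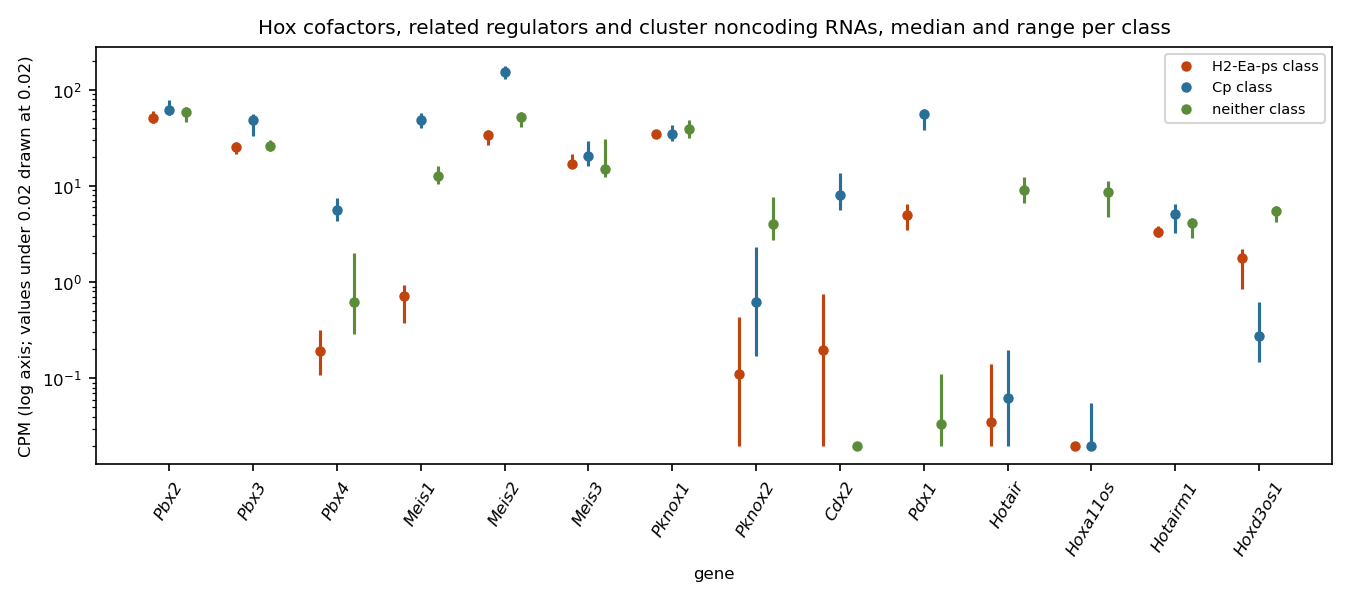
Points give the median and lines the lowest and highest CPM of a class, on a log axis, for TALE cofactors, Cdx2, Pdx1 and 4 cluster noncoding RNAs; the H2-Ea-ps class is drawn without library 71. Meis1, Cdx2 and Pdx1 are highest in the Cp class (medians of 48.01, 8.14 and 55.6 CPM), and Hotair and Hoxa11os stand out in the neither class (9.12 and 8.59 CPM).

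Markers of other cells also differed between the classes. The summed level of 8 fibroblast markers was 1947 to 3937 CPM (median 2514) in the H2-Ea-ps class, 3311 to 6472 CPM (median 5072) in the Cp class and 5653 to 12820 CPM (median 7821) in the neither class, and all 8 were on in each class. For 6 leukocyte markers the medians were 448, 564 and 720 CPM (352 to 659, 429 to 702 and 624 to 928 CPM). Keratins of epithelium differed as well, with Krt18 at 215 to 507 CPM in the Cp class, 6.84 to 40.6 CPM in the H2-Ea-ps class and 0.195 to 1.45 CPM in the neither class. The 6 hair follicle markers summed to 6.99 to 85.5 CPM in the Cp class, in which Hoxc13 was off. Their sum was 0.0324 to 4.69 CPM in the H2-Ea-ps class, with the highest value in library 71. In the neither class, in which Hoxc13 was on, it was at most 0.211 CPM, with 4 of the 6 under 0.1 CPM in every library. Within a class, the summed Hox level was compared with the summed fibroblast, skeletal muscle and leukocyte markers, 9 relations of 12 libraries each. In the Cp class Pearson's r with the fibroblast markers was 0.741 (permutation p = 0.00788, adjusted p = 0.0709) and Spearman's rho was 0.643 (permutation p = 0.0286, adjusted p = 0.0913), and r was 0.656 without the 2 libraries farthest from the median of the markers. In the H2-Ea-ps class r with these markers was -0.246 (permutation p = 0.452, adjusted p = 0.813) and rho 0.364 (permutation p = 0.249, adjusted p = 0.56), and r was 0.629 without library 71 and PancO2 anti-CTLA4 62, so that its sign rested on those libraries. With the skeletal muscle markers rho was 0.636 in the H2-Ea-ps class (permutation p = 0.029, adjusted p = 0.0913). It was also 0.636 in the Cp class (permutation p = 0.0304, adjusted p = 0.0913) and -0.049 in the neither class (permutation p = 0.886). The values of r for these markers were 0.374, 0.56 and -0.0437. Adjusted over the 9, the lowest permutation p-values were 0.0709 for r and 0.0913 for rho, and no relation passed 0.05. Which cells of a tumor carried the Hox transcripts was not tested.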

How the data were processed

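Per the labels, poly-A RNA of 36 tumor samples was converted into libraries with the Illumina TruSeq kit V2. The authors deposited raw read counts per Ensembl gene, made by mapping to GRCm38/mm10 with TopHat and Bowtie and counting with HTSeq; the submitters' notes also name Bowtie2, FastQC 0.11.5 and HTSeq 07.2. Neither the annotation release nor strand use is stated. HTSeq sets aside reads with several positions and reads shared by overlapping genes, which lowers the counts of overlapping or closely related genes. The 5 summary lines naming no gene (44.8% to 86.5% of listed reads) entered neither library sizes nor tests.

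Symbols, positions and exon lengths came from the GENCODE annotation of GRCm38, and promoters from RefSeq (GRCm38.p6). A total of 32608 identifiers had a symbol. Libraries were grouped by label, and by H2-Ea-ps above 10 CPM or else Cp above 1000 CPM. The members, lists and tests were chosen with earlier results of these data known. All Hox genes were to be named, with ranges for those on in a class, together with lists of cofactors, upstream genes, chromatin regulators, noncoding RNAs, flanking genes and cell type markers. Values of some single genes are not reported here, in text or plots, although they enter the counts and sums.

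Labelled groups were compared on counts with edgeR 4.0.16 in R 4.3.3 (filterByExpr, TMM, glmQLFit and glmQLFTest, two-sided, adjusted p under 0.05 over all genes tested), using the 12 IgG libraries for models and the 12 libraries of a labelled model for treatments. Standard errors are the log2 difference over the square root of F. Alternatives were DESeq2 1.42.0, limma-voom (limma 3.58.1), other scaling, filters and samples, each library left out, and a term for the classes; the last also over all 36 libraries and over all but library 71, both added after seeing the data. Scripts were tested on simulated data. Correlations used two-sided tests with 100000 permutations in Python 3.11.15 (numpy 2.4.6, pandas 2.3.3, scipy 1.17.1, matplotlib 3.10.9). Dixon's ratio was used to look for outlying libraries in groups of 4.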

Additional observations from a re-analysis of the deposited data

Results flagged for a closer look

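In 36 sets (the summed level of each of the 4 clusters in each of the 9 labelled groups of 4 libraries) 8 had 1 library far from the other 3 by Dixon's ratio, where chance would give about 1.8. In each of 5 of these the library was the only one of the neither class in its labelled group. They were the Hoxa sum in MC38 anti-PD-1 19 (142.3 CPM, against 66.0 to 78.8 in the other 3 libraries of the group), and the Hoxc sum in MC38 IgG 2 (165.3 CPM, against 29.8 to 45.5), MC38 anti-PD-1 19 (171.9 CPM, against 38.1 to 49.95), CT26 anti-CTLA4 32 (171.7 CPM, against 30.8 to 43.65) and PancO2 anti-CTLA4 61 (164.7 CPM, against 36.8 to 51.01). Library 71 gave another 2, a Hoxb sum of 35.65 CPM against 9.89 to 13.4 and a Hoxc sum of 107.4 CPM against 33.0 to 35.1. The last was the Hoxb sum in PancO2 anti-CTLA4 62, the only H2-Ea-ps library of its group, at 18.81 CPM against 15.3 to 15.8.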

How the results depend on the processing

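No Hox gene was called in any of the 9 labelled comparisons under any of 189 alternative fits, the 108 that left out 1 library among them. The smallest adjusted p of a Hox gene was 0.806 in the reported fits and 0.164 over the alternatives, for anti-PD-1 over IgG in libraries labelled PancO2 with all 36 libraries in one fit, and up to 7 Hox genes had an unadjusted p under 0.05. Of the other 28 values with another setting 27 stayed within 1.5 times the count or within the spread of the genes. The exception was the count of Hox genes separating the H2-Ea-ps and neither classes, which went from 11 to 5 when a gap of at least 2 times was required, because a stricter gap keeps fewer genes. With TMM-scaled CPM the same 9, 11 and 17 genes separated the pairs of classes in the same direction. At 2 CPM in place of 1, the genes on were 12, 15 and 20 in the H2-Ea-ps, Cp and neither classes. No paired analysis was possible because each sample number in the labels belongs to 1 library. Depth limits the genes near 0: in library 71 a count of 0 allows up to 0.381 CPM.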
